A study of Mus musculus with 2 samples.

Results

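Transcription elongation and topoisomerase genes were examined on the arrays of young MEFs transfected with GapmeR AK156230 or GapmeR Control. They were Top1, Top2b, Cdk9, Cdk12, Cdk13, Ccnk, Ccnt1, Ell2, Aff4 and Tcea1, chosen by name as factors on which the transcription of long genes depends. All probe sets that the platform annotation assigns to exactly 1 of these genes were taken, which gave 29 of the 45037 probe sets in the table and 10 of 18193 named genes. The cells were primary fibroblasts from whole C57BL/6 embryos at day 13.5, used at passage 2, and each condition had 1 array. GapmeR Control is a non-targeting scrambled LNA oligonucleotide, and GapmeR AK156230 is an LNA oligonucleotide that directs RNase H to the lncRNA AK156230. The values were MAS5 signals, which are probe set intensities on a linear scale. With 1 array per condition no difference below has a replicate check and no p-value is given. Below, the arrays are called the knockdown (GapmeR AK156230) and the control (GapmeR Control), differences are log2 ratios of knockdown over control, and 2-fold or more was the threshold for counting a probe set or gene as lower or higher. A probe set is called bright when its signal on the brighter array reached that array's median, and dim otherwise. No probe set lists AK156230, so its knockdown could not be read from these arrays.

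RNA polymerase II pauses soon after it starts on a gene and is released by P-TEFb, a complex of the kinase CDK9 and cyclin T1. P-TEFb works within the super elongation complex, which AFF4 holds together and in which ELL2 raises the speed of the polymerase. CDK12 and CDK13, each with cyclin K, phosphorylate the tail of the polymerase further along the gene, and TFIIS, the product of Tcea1, restarts polymerases that have backtracked. Topoisomerases I and IIβ, encoded by Top1 and Top2b, relax the supercoils that a moving polymerase leaves, and in neurons both are known for keeping long genes expressed. Topoisomerase IIβ is made in dividing and in non-dividing cells, while its paralog topoisomerase IIα is made mainly in dividing cells.

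Of the 10 genes, Top2b and Ell2 were much lower with GapmeR AK156230 and the other 8 differed by less than 2-fold. Top2b was 7.86-fold lower and Ell2 6.76-fold lower at their brightest probe sets. The other 8 genes had log2 ratios from -0.64 (Top1) to 0.60 (Ccnt1) with a median of -0.06, which is also the median of all 12319 bright genes. For comparison, 3.85% of all named genes were lower and 1.59% higher at that threshold, and 0.813% were lower by 4-fold or more. Among the bright genes, ordered from the largest decrease, Top2b was number 31 and Ell2 number 46 of 12319. The median log2 ratio over the 10 genes was -0.29, against -0.07 over all named genes. The only error that these data allow is the spread between probe sets of the same gene, which was 0.276 (SD, log2 ratio per probe set) over 5112 genes with 2 or more bright probe sets and 0.378 over 2825 genes with 2 or more dim ones. That spread is technical and is not the error between cultures.

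**Figure D1:**
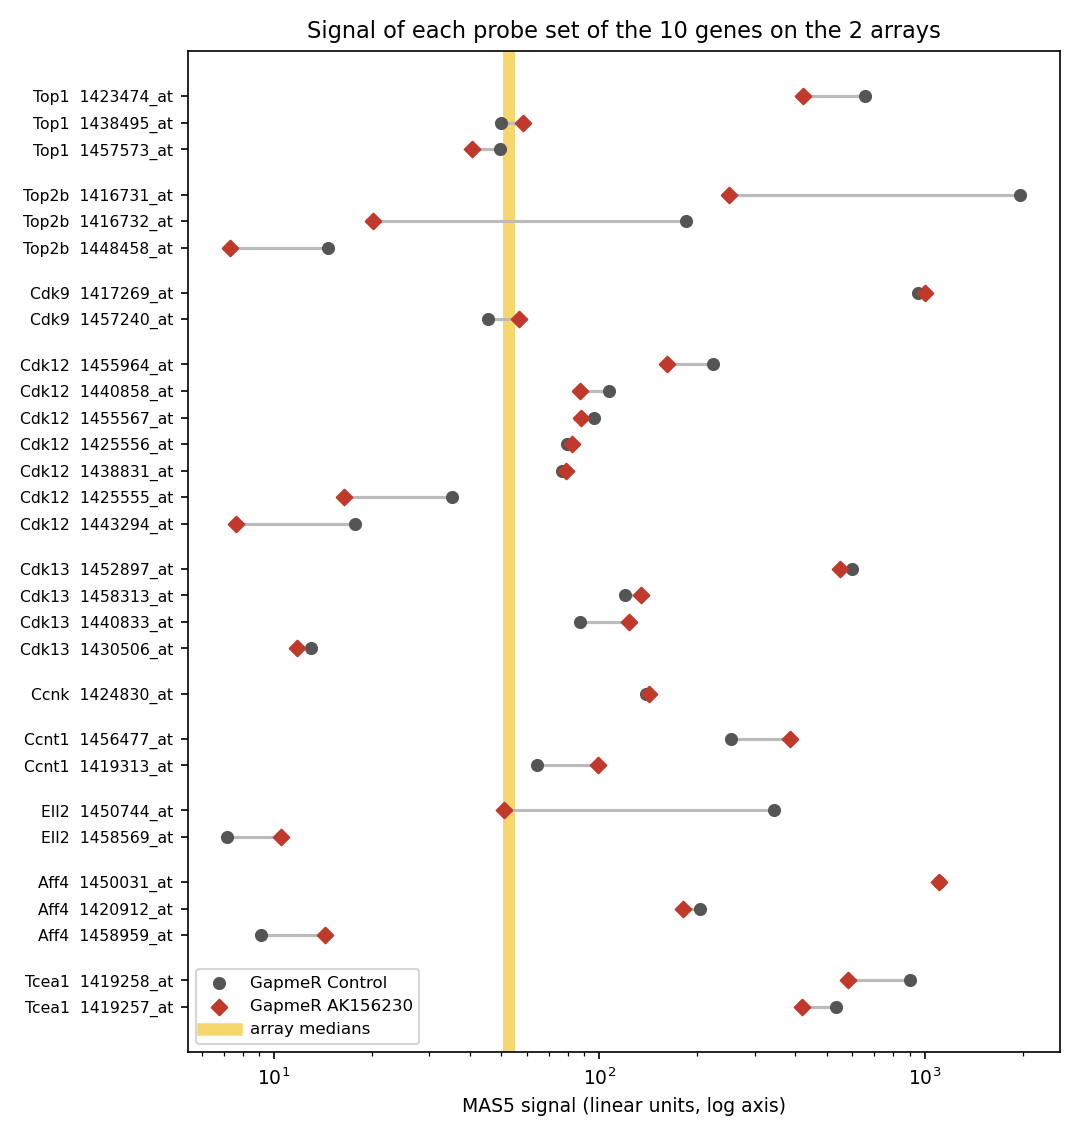
MAS5 signal on a log axis of each of the 29 probe sets, grouped by gene, with a grey circle for GapmeR Control, a red diamond for GapmeR AK156230 and a yellow band between the median signals of the arrays (50.95 and 54.8). The wide gaps at bright signal are those of Top2b, from 1965.74 to 250.17 and from 185.16 to 20.17, and of Ell2, from 343.77 to 50.88.

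The stretches upstream of Top2b and Ell2 are shown because these genes were the ones lower by 2-fold or more, and that of Aff4 because Aff4 works in one complex with Ell2 and had almost the same signal on both arrays. Each is the 250 bases before the start site in RefSeq (GRCm38.p6), 5′ to 3′ on the plus strand, which is the strand of all 3 genes. Top2b lies at chr14:16364956-16365205, Ell2 at chr13:75707234-75707483 and Aff4 at chr11:53350517-53350766. The Aff4 stretch runs past the outermost start of its gene (53350640), so part of it lies within the gene. The Top2b and Ell2 stretches end before the outermost starts of their genes. Capitals mark CCAAT and TGACGT, the cores of the CCAAT box and of the cyclic AMP response element, on either strand (ATTGG and ACGTCA on the other).
Top2b: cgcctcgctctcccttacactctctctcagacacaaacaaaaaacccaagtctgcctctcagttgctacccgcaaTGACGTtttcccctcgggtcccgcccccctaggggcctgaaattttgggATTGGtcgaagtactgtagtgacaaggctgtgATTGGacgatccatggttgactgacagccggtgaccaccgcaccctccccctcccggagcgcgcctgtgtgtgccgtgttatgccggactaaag
Ell2: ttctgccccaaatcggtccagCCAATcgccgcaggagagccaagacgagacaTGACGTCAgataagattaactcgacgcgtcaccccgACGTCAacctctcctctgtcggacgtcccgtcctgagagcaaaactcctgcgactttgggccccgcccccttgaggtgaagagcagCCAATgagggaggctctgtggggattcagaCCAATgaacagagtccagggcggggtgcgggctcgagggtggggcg
Aff4: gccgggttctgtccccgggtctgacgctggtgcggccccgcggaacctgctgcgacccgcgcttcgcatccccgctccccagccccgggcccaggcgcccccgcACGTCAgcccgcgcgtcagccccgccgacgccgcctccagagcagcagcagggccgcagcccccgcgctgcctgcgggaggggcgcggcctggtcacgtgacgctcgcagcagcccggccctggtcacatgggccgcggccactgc
The Top2b stretch held 2 CCAAT matches and 1 TGACGT match. The Ell2 stretch held 3 of each, and 2 of its TGACGT matches overlap on opposite strands. The Aff4 stretch held no CCAAT and 1 TGACGT. Of 32851 promoter stretches of this length, 33.8% held CCAAT and 6.47% held TGACGT. Among the 9 genes with a stretch in the table, CCAAT was also found upstream of Cdk9 and Ccnk, and TGACGT upstream of Ccnt1. These genes were not lower by 2-fold. Further motifs were scanned and are not in capitals. One of them, GGGCGG, was found upstream of Top2b and Ell2, but also of Top1, Cdk9, Cdk12, Cdk13 and Ccnt1. It was not found upstream of Ccnk or Aff4. Another, CACGTG, was found upstream of Top1 and Aff4 only. The last motif, TATAAA, was found upstream of none of the 9 genes. Of the 32851 promoter stretches, 32.7% held GGGCGG, 6.02% held CACGTG and 12.4% held TATAAA. The GC content was 57.6% for Top2b, 61.2% for Ell2 and 79.2% for Aff4. A match is a description of the letters and not of a bound site.

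Top2b, on chromosome 14 from 16365206 to 16430787 (65.6 kb), was lower at each of its 3 probe sets. Probe set 1416731_at had a signal of 1965.74 in the control and 250.17 in the knockdown, a log2 ratio of -2.97. Probe set 1416732_at had 185.16 and 20.17, a log2 ratio of -3.20. Probe set 1416731_at was above the median on both arrays, while the knockdown signal of 1416732_at was under the array's 25th percentile (23.56). With 24.3, the 25th percentile of all signals, added to every signal, the log2 ratios of these probe sets were -2.86 and -2.23. The remaining probe set, 1448458_at, was under the 25th percentile on both arrays (14.65 and 7.32) and stood at 2.00-fold lower, with a log2 ratio of -0.30 after the offset.

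The other topoisomerase genes did not show a decrease of that size. Top1, on chromosome 2 from 160645897 to 160722764 (76.9 kb), had 657.94 in the control and 423.34 in the knockdown at its brightest probe set, 1.55-fold lower. Its other 2 probe sets were near the median of the arrays and went opposite ways, with 49.78 and 58.37 at the one and 49.60 and 40.68 at the other. The difference at the bright probe set was thus larger than the spread between probe sets, but no other probe set of the gene showed it. Top2a, which encodes topoisomerase IIα, had 857.08 and 757.48, a log2 ratio of -0.18, and its 2 dim probe sets were at -0.12 and -0.32. Its log2 ratio lay among those of 7 proliferation markers, which ranged from -0.40 to 0.31 with a median of -0.17. Top1mt, the mitochondrial type I enzyme, had 114.5 and 97.25, a log2 ratio of -0.24. Top3b, a type IA enzyme that also acts on RNA, had log2 ratios from -0.24 to -0.06 at 3 probe sets, and its relative Top3a was dim, with 30.76 and 42.56. Of the 6 topoisomerase genes Top2b was the only gene past 2-fold. Tdp1 and Tdp2, whose products remove topoisomerase I and II stuck on DNA, had log2 ratios of -0.28 and 0.79, with signals of 257.55 and 446.53 for Tdp2.

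Ell2, on chromosome 13 from 75707484 to 75772361 (64.9 kb), had 1 informative probe set. Probe set 1450744_at, designed on a RefSeq mRNA of the gene, had 343.77 in the control and 50.88 in the knockdown, a log2 ratio of -2.76. The signal was well over the median of the array in the control and at it (50.95) in the knockdown, and the log2 ratio was -2.29 with the offset. The other probe set, 1458569_at, designed on another GenBank sequence, had 7.19 and 10.49, both under the 25th percentile. Its log2 ratio of 0.54 is between signals near the bottom of the range, and with the offset it was 0.14. The decrease of Ell2 therefore rests on 1 probe set, unlike that of Top2b. No probe set of Ell2 was left out, and the mean over both was a log2 ratio of -1.11.

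Of the other measured genes of the super elongation complex none was lower by 2-fold. Aff4, the scaffold of the complex, on chromosome 11 from 53350640 to 53421830 (71.2 kb), had 1108.17 in the control and 1109.19 in the knockdown. A dimmer probe set of Aff4 had 204.36 and 181.12, and the third, with 9.14 and 14.38, was under the 25th percentile on both arrays. Aff1, the related scaffold, had 642.64 and 618.6. Ell, the paralog of Ell2, had 384.14 and 282.1 at its brightest probe set, a log2 ratio of -0.45, and 122.82 and 140.11 at its other one, a log2 ratio of 0.19. Eaf1, which encodes a partner of ELL proteins, was the 1 gene of the list that was higher by 2-fold, with 360.95 and 722.55. It stood just past the threshold, at 2.00-fold, and a dim probe set had 28.01 and 31.90. With the mean of its probe sets its log2 ratio was 0.59. Mllt1 and Mllt3, which encode readers of acetylated histones in the complex, had log2 ratios of 0.31 and -0.10.

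The 2 subunits of P-TEFb were not lower. Cdk9, the kinase subunit, on chromosome 2 from 32705782 to 32712784, had 952.36 and 1004.01, and its other probe set, near the median of the arrays, had 45.57 and 56.44. Ccnt1, which encodes cyclin T1, on chromosome 15 from 98538690 to 98567736, was higher at both of its probe sets, by 1.52-fold at 1456477_at (254.23 and 385.25) and by 1.54-fold at 1419313_at (64.23 and 99.04). The log2 ratios of the Ccnt1 probe sets, 0.60 and 0.62, were larger than the spread between probe sets and close to each other, but they were short of 2-fold. Of all named genes, 5.48% were higher by 1.5-fold or more. Ccnt2, its paralog, did not go one way, with log2 ratios from -0.59 to 0.44 at 5 probe sets. Hexim1 and Larp7, parts of the 7SK particle that holds P-TEFb inactive, had log2 ratios of 0.23 and 0.45. Of the 7 measured genes of P-TEFb and its control none was past 2-fold, 6 had log2 ratios above 0, and the median was 0.23.

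Kinases of the later phase of elongation showed no decrease at their brighter probe sets that approached 2-fold. Cdk12, on chromosome 11 from 98202433 to 98281101 (78.7 kb), has 7 probe sets. The 5 bright ones had log2 ratios from -0.46 to 0.05, and the brightest had 222.86 in the control and 161.81 in the knockdown. The 2 dim ones were those past 2-fold, with 35.25 and 16.37 at 1425555_at and 17.76 and 7.64 at 1443294_at. With the offset these were at -0.55 and -0.40. Cdk13, on chromosome 13 from 17711676 to 17805212 (93.5 kb), had 597.64 and 548.52 at its brightest probe set, while 2 others were slightly higher in the knockdown, at log2 ratios of 0.16 and 0.49. A dim probe set of Cdk13 had 12.96 and 11.76. Ccnk, which encodes the cyclin of both kinases, on chromosome 12 from 108179308 to 108203359, has 1 probe set, with 139.33 and 142.18. In human cells CDK12 is known for sustaining the expression of long DNA repair genes. In a list of 4 of these genes none was past 2-fold, and their log2 ratios ranged from -0.28 to 0.59 with a median of -0.17.

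Tcea1, on chromosome 1 from 4857694 to 4897909 (40.2 kb), was lower at both of its probe sets. Probe set 1419258_at had 900.39 and 582.55, 1.55-fold lower, and 1419257_at had 535.62 and 419.37, 1.28-fold lower. Both log2 ratios, -0.63 and -0.35, were larger than the spread of 0.181 between probe sets above the 75th percentile of signals. Of all named genes, 9.69% were lower by 1.5-fold or more. The tissue-restricted paralogs Tcea2 and Tcea3 had signals near the median of the arrays at their brightest probe sets. These were 52.48 and 55.37 for Tcea2 and 58.52 and 70.85 for Tcea3. A dim probe set of Tcea2 had 38.18 and 20.09, a log2 ratio of -0.93, so its probe sets did not go one way.

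**Figure D2:**
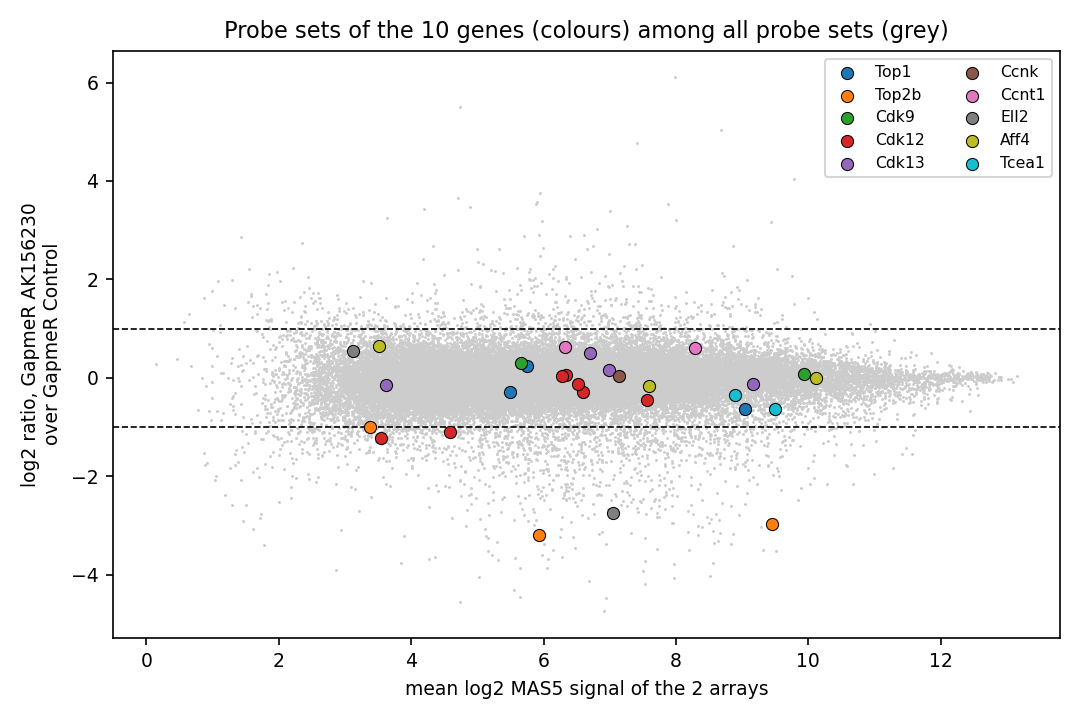
log2 ratio of knockdown over control against mean log2 MAS5 signal for all 45037 probe sets (grey), with the 29 probe sets coloured by gene and dashed lines at 2-fold. The 2 bright Top2b probe sets at -2.97 and -3.20 and the Ell2 probe set at -2.76 lie apart from the other 26, of which the lowest, a dim Cdk12 probe set, is at -1.22.

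Counted as probe sets, 6 of the 29 were lower by 2-fold or more, none was higher and 23 lay between, while 3.28% of all probe sets were lower and 1.45% higher. Of the 22 bright ones 3 were lower, those of Top2b (2) and Ell2 (1), against 4.32% of all such probe sets. The other 3 were among the 7 dim ones and belonged to Cdk12 (2) and Top2b (1), against 2.10% of all dim probe sets. Log2 ratios were below 0 in 16 probe sets and above 0 in 13. At 1.5-fold 8 of the 29 were lower and 3 higher, against 9.37% and 5.49% of all probe sets.

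The wider machinery was for the most part level, with small log2 ratios above 0. Of 61 measured genes of elongation, RNA polymerase II and topoisomerase lists, the 10 genes included, 3 were lower by 2-fold or more, 1 was higher, and 57 lay between, where 3.85% of all named genes were lower and 1.59% higher. The counts past 2-fold were thus near those of all genes. The median log2 ratio was 0.18, against -0.07 over all named genes, and 40 of the 61 were above 0, as were 7487 of all 18193 named genes. All 11 measured subunits of RNA polymerase II had log2 ratios above 0, from 0.11 to 0.36 with a median of 0.20. Polr2a, the catalytic subunit, had 945.97 in the control and 1076.8 in the knockdown at its brightest probe set, a log2 ratio of 0.19. Its other probe set was at -0.33. With probe sets of a gene averaged, 9 of the 11 were above 0, and Polr2a and Polr2e were each at -0.07. Without probe sets ending in _x_at or _s_at, 10 of 11 were above 0. Besides Top2b and Ell2, the lower gene was Cdc73, which encodes parafibromin of the PAF1 complex, a platform on the moving polymerase. Cdc73 had 399.44 and 186.56 at its brightest probe set, 2.14-fold lower. All 7 of its probe sets had log2 ratios below 0. The bright ones were at -1.10 and -1.55, and the others, all dim, ranged from -0.90 to -0.06. Its log2 ratio was -0.99 after the arrays were scaled to the same median and -0.76 as the mean of its probe sets. The other 5 measured genes of the PAF1 complex had log2 ratios above 0, among them Leo1 at 0.58 and Paf1 at 0.53. Among 5 genes of DSIF and NELF, the factors that hold the polymerase in its pause, log2 ratios ranged from -0.29 to 0.50. At their brightest probe sets, the 3 genes of the CDK-activating kinase, which acts at initiation, ranged from -0.41 to 0.18. Of these, Ccnh was below 0 at all 3 of its probe sets and Cdk7 at all 5, with means of -0.58 and -0.35. Mnat1 was at 0.18 at its 1 probe set. The brightest probe sets of the 6 genes of elongin and TFIIS ranged from -0.63 to 0.28. Those of the 4 genes of histone chaperones and Setd2 ranged from -0.17 to 0.18.

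**Figure D3:**
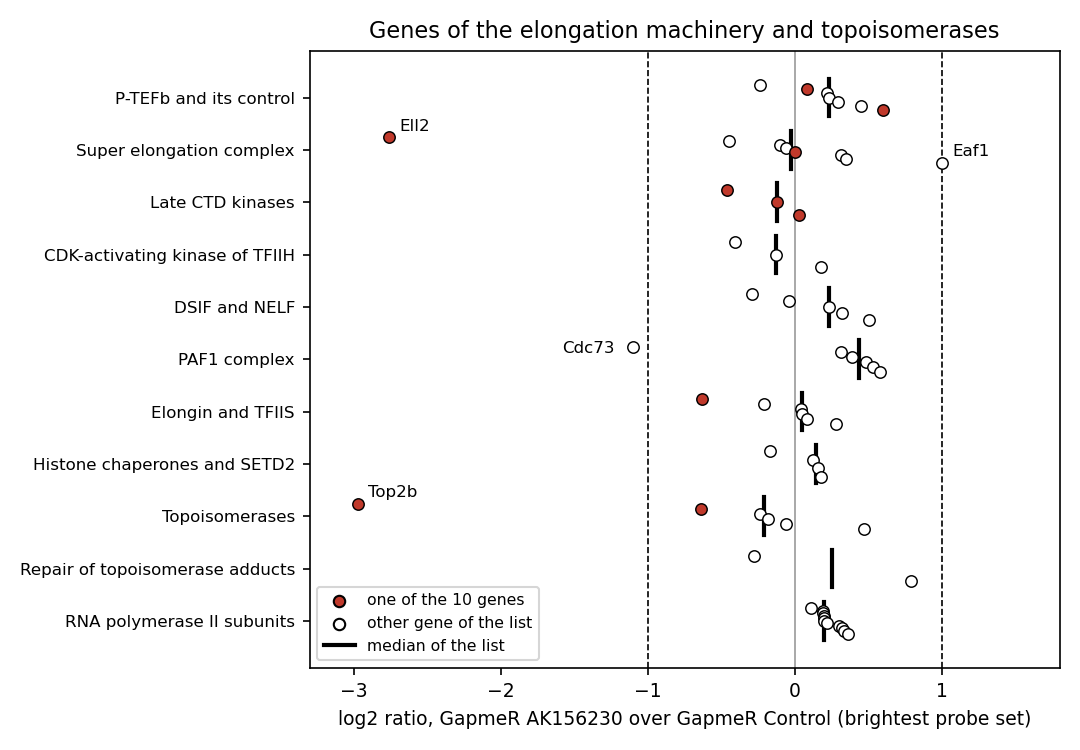
log2 ratio of knockdown over control at the brightest probe set of each measured gene, in 11 lists of the machinery, with the 10 genes in red, other genes in white, black bars at list medians and dashed lines at 2-fold. Top2b (-2.97), Ell2 (-2.76), Cdc73 (-1.10) and Eaf1 are the named points, and the RNA polymerase II subunits lie between 0.11 and 0.36.

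The genes were also set against their own length, since on these arrays genes of great length were more often lower. Of the 10 genes 6 span 40 to 80 kb. Of these, Top2b and Ell2 were past 2-fold, while Top1, Cdk12, Aff4 and Tcea1 were not. Of all 1932 bright genes of that length, 5.12% passed 2-fold downwards and 13 were lower by 4-fold or more, Top2b and Ell2 among them. Cdk13 is in the class of 80 to 160 kb, in which 8.30% of 1277 genes were lower, and none of the 10 is over 160 kb, where 25.4% of 779 were lower. Near Top2b (65.6 kb) and Ell2 (64.9 kb) in length are Aff4 (71.2 kb), Top1 (76.9 kb) and Cdk12 (78.7 kb). At the brightest probe set, Aff4 had almost the same signal on both arrays, and Top1 and Cdk12 were at -0.64 and -0.46. The part of length in the decrease of Top2b and Ell2 was not tested.

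**Figure D4:**
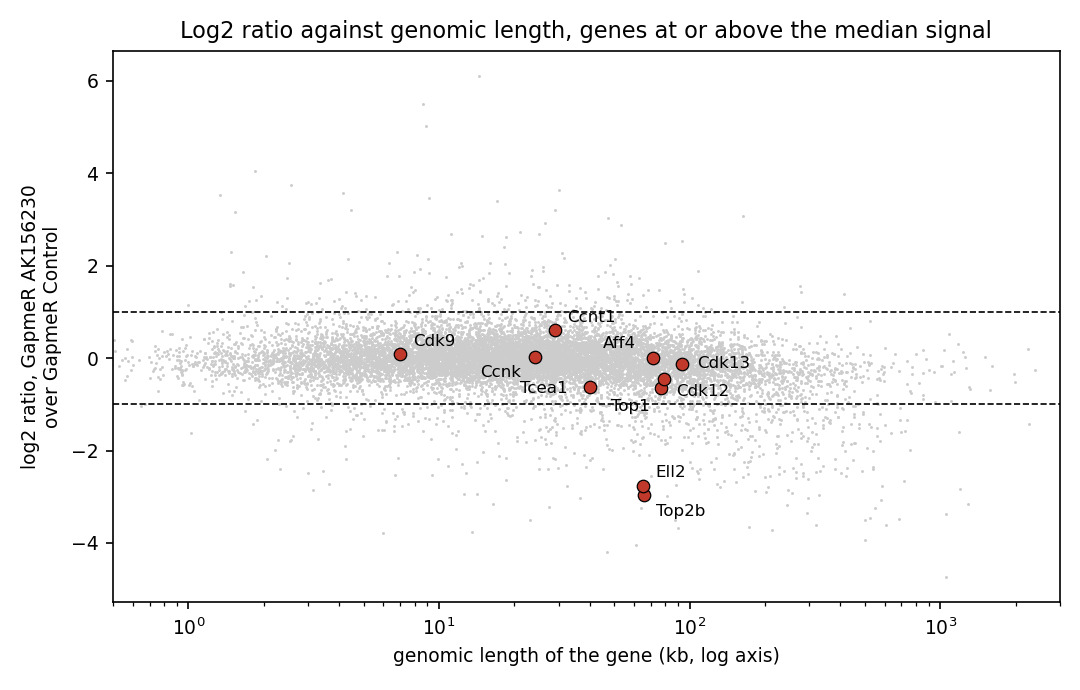
log2 ratio of knockdown over control against genomic length on a log axis for each bright gene (grey), with the 10 genes in red and dashed lines at 2-fold. Top2b and Ell2 lie near 65 kb at -2.97 and -2.76, with Aff4, Top1 and Cdk12 of like length at 0.00, -0.64 and -0.46.

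Fibroblast markers were measured on both arrays, and all 15 were bright. Past 2-fold, 6 of the 15 were lower and 0 higher, where 3.85% of all named genes were lower and 1.59% higher. Their median log2 ratio was -0.91, against -0.07 over all named genes, and 13 of the 15 were below 0. Their summed signal was 47300 in the control and 32100 in the knockdown. Log2 ratios nearest 0 were those of S100a4 (-0.02), Dcn (0.06) and Vim (-0.09). The part of the fibroblast markers in the result for Top2b and Ell2 was not tested. In bulk RNA fewer cells of a type and less RNA per cell cannot be told apart. Markers of other cell types were often dim. Summed signals of 7 leukocyte markers, of which 5 were bright, were 1300 and 1180. Of these, Cd68 was higher by 2-fold or more and the other 6 had log2 ratios below 0 (median of the 7, -0.30). The sums were 121 and 158 for 4 endothelial markers, of which only Kdr was bright, and it was higher by 2-fold or more. For 4 keratinocyte markers, all dim, they were 128 and 127. For 4 skeletal muscle markers, of which 2 were bright, they were 496 and 395, with 378.83 and 309.38 from Des alone.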

How the data were processed

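Total RNA of 1 sample per condition was hybridized by the authors to Affymetrix arrays, and the deposited intensity values are MAS5 signals scaled per array by the authors. Neither the version of MAS5 nor its target for scaling is given in the sources used, and the table holds no detection calls and no control probe sets. The lowest signal over both arrays was 1. The highest was 8976.88 with GapmeR Control (median 54.8) and 9206.82 with GapmeR AK156230 (median 50.95). The methods name a porcine array, but the labels give mouse RNA and the platform annotation is of mouse probe sets, which was used. It gave 1 symbol for 34945 probe sets, several for 932 and none for 9160. Symbols were updated through Entrez IDs for 34741. Positions and lengths are those of RefSeq on GRCm38.p6, and the study's own annotation of these probe sets names the same NCBI build. Upstream sequences are also from RefSeq (GRCm38.p6), and 9 of the 10 genes had one. The start site used there can differ from the gene's outermost start.

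Log2 ratios were taken on the signals as deposited, without offset, and a gene was represented by its probe set of highest mean log2 signal. Bright means a signal on the brighter array at or above that array's median. The test for groups of arrays named in the methods needs replicates and was not run. Their number, 1 per condition, limits the precision. The 10 genes and the lists were chosen with earlier results of these data known. Named besides the 10 genes are list genes past 2-fold at bright signal and the paralogs of the 10. Some further list genes (such as Tdp2, Leo1 and Polr2a) were chosen after their values were seen. Of 67 entries of the machinery lists 61 were measured, and the others were not analysed here. The alternatives were scaling to the same median, quantile normalization, loess (span 0.3), an offset of 24.3, minimum signals, the mean of probe sets, thresholds of 1.5-fold and 3-fold, and leaving out _x_at and _s_at probe sets. The gene summary was run on a small made-up table. The rules for counting and for the probe set spread were tried on simulated ratios in a separate calculation, which does not check the values given here. Python 3.11.15 with numpy 2.4.6, pandas 2.3.3, statsmodels 0.14.6 and matplotlib 3.10.9 was used.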

Additional observations from a re-analysis of the deposited data

How the results depend on the processing

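Top2b and Ell2 were the genes of the 10 that were lower by 2-fold or more under all alternatives except 1.5-fold, where Top1 and Tcea1 joined them (4 lower) and Ccnt1 was higher (1). At 3-fold the same 2 genes remained. Scaling both arrays to the same median raised every log2 ratio by 0.11. Over the alternatives that give one, the log2 ratio of Top2b ranged from -2.97 to -2.86 at 1416731_at and from -3.20 to -2.23 at 1416732_at, and that of Ell2 at 1450744_at from -2.76 to -2.29, the smallest decreases being those with the offset. Of the 29 probe sets 6 were lower by 2-fold, and 3 with the offset, with a minimum signal at the median or at 3-fold. The count was 5 with scaling to the same median, quantile normalization or loess, and 4 with a minimum signal at the 25th percentile. At 1.5-fold 8 were lower and 3 higher. Those lost with the offset had dim signals. In the machinery lists 3 genes were lower and 1 higher, against 5 and 3 at 1.5-fold. Only 2 were lower, without Cdc73, with scaling to the same median, at 3-fold or with the mean of probe sets. No gene was higher (0) with the offset, at 3-fold or with the mean of probe sets. Of 191 values of single probe sets 184 moved by less than the spread between probe sets, and no value past 2-fold changed sign. Many of the 184 could not have moved further. Minimum signals and leaving out _x_at and _s_at probe sets only drop probe sets and leave the other ratios as they were. Scaling to the same median moved all ratios alike, by 0.11, which is under that spread. The 7 values that moved further were all with the offset, among them that of Ell2 at 1450744_at. Leaving out a replicate was not possible with 1 array per condition, and signals near the bottom of the range limit the ratios of dim probe sets.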
